A study of Mus musculus with 16 samples.

Results

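The 37 aminoacyl-tRNA synthetase genes measured in sorted mouse erythroid progenitors were followed through a transcriptome comparison and an N6-methyladenosine (m6A) immunoprecipitation. They were defined by a rule on gene symbols, which was chosen with earlier results of these data known. All 37 were among the 15386 genes of the RNA-seq table and among the 13490 genes of the m6A table. All 37 also passed the filter on low counts in both tables, which kept 11979 and 11447 genes, so no member was lost before testing. The members comprised 20 cytosolic enzymes, of which 2 (*Gars* and *Kars*) supply both compartments, and 17 mitochondrial enzymes.

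All samples came from mouse bone marrow, from adult animals of both sexes on the C57BL/6 background. The cells were CFU-E, the erythroid progenitors that precede proerythroblasts. RNA-seq was done on 3 libraries of control CFU-E and 3 of Kit-lo CFU-E from *Mettl3*-deficient animals. The m6A experiment had 2 immunoprecipitate (IP) and 2 input libraries, all of control CFU-E. The *Mettl3*-deficient animals were *Mettl3* fl/fl and carried 1 copy of *EpoR-tdTomato-Cre*, a Cre that recombines in erythroid cells and in macrophages of the erythroblastic island, and in part in hematopoietic stem cells. The labels call the other animals controls and do not give their alleles. Kit-lo cells are CFU-E that carry very little of the receptor Kit, and they were taken from the *Mettl3*-deficient animals only, so genotype and the Kit gate cannot be told apart. The labels do not say that the libraries of a group came from different animals, so the p-values describe the spread between these libraries, which may be partly technical.

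An aminoacyl-tRNA synthetase joins one kind of amino acid to its tRNAs, and the charged tRNA then delivers it to the ribosome. Mitochondria translate their own few mRNAs and use a separate, nuclear-encoded set of these enzymes, whose symbols end in 2. In the cytosol, several synthetases are bound together with scaffold proteins in the multi-tRNA synthetase complex, and some synthetase genes are known targets of the amino acid response driven by the transcription factor ATF4. Red cell precursors make large amounts of globin and therefore depend on charged tRNA.

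Library totals were 17429262 to 21329242 counts in control CFU-E, 18698840 to 19987964 in *Mettl3*-deficient CFU-E Kit-lo, and 19421059 to 37142742 in the m6A experiment. Levels below are CPM, the counts of a gene relative to the library total after TMM scaling. *Kit*, the gene of the receptor used in the gate, had 544, 629 and 622 CPM in the control libraries and 68.5, 53.1 and 44.0 CPM in the Kit-lo libraries. *Mettl3* itself had 115, 123 and 130 CPM in control, against 117, 127 and 108 CPM where the label says *Mettl3*-deficient. The groups overlapped, with a log2 fold change of -0.07 ± 0.10 (SE, adjusted p = 0.634). The floxed part of *Mettl3* is not given in the labels and a count over the whole gene includes the exons outside it, so this is no check of the deletion. The summed CPM of 9 markers of maturing erythroid cells (globins, *Alas2*, *Slc4a1* and others) was 304 to 322 in control and 2922 to 4751 in Kit-lo libraries, and 8 of the 9 were called higher. The summed level of 9 CFU-E and proerythroblast markers was 16206 to 16756 CPM in control and 10564 to 11885 CPM in Kit-lo. That sum was mostly *Car1* and *Car2*. At a fold of at least 1.5 with an adjusted p under 0.05 (edgeR) 2 of the 9 were higher and 2 lower. Their median log2 fold change was 0.07. Over all genes tested 12.1% were called higher and 9.83% lower by that rule. Summed macrophage markers stood at 10.5 to 14.2 and 9.50 to 15.1 CPM, granulocyte markers at 25.5 to 39.0 and 14.0 to 22.6, lymphoid markers at 0.766 to 1.49 and 0.934 to 1.82, and megakaryocyte markers at 4.31 to 6.63 and 6.72 to 16.008. By the same rule 0 were higher and 1 lower of 6 macrophage markers tested, and 0 and 1 of 3 granulocyte markers. Of 3 megakaryocyte markers 2 were higher and 0 lower, and no lymphoid marker passed the filter on low counts. No marker in the table was at 0 in all 6 libraries, and *C1qc*, *Ppbp* and *Gp1bb* were not analysed here. The part of this shift in cell state in the synthetase results was not tested, and in bulk samples fewer cells of a type and less RNA per cell cannot be told apart.

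In the RNA-seq libraries of control CFU-E, synthetase mRNAs spanned a wide range once divided by exonic length. *Kars*, the lysyl enzyme used in both compartments, was highest at 224 ± 22.4 CPM per kilobase (SD, n = 3). It was followed by *Rars* (arginine) at 181 ± 9.18 CPM per kilobase, *Farsb* at 156 ± 8.96 and *Farsa* at 118 ± 11.1, the last a pair that encode the subunits of the cytosolic phenylalanyl enzyme. The library values of these 4 genes did not overlap between neighbours in that order. The order depends on the length used, here all annotated exonic bases. For *Farsa* these are 4538, against 1826 in its principal transcript, and for *Farsb* 2620 against 2036. From *Mars* (93.7 CPM per kilobase) through *Dars* (88.1) and *Nars* (84.4) to *Hars* (77.9), each gene overlapped its neighbour. *Cars* was the lowest cytosolic member at 14.7 ± 1.62 CPM per kilobase.

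The mitochondrial enzymes sat lower, with a median of 9.11 CPM per kilobase over 17 genes against 56.7 over the 20 cytosolic ones. *Tars2*, the mitochondrial threonyl enzyme, stood first among them at 47.5 ± 0.391 CPM per kilobase. *Iars2* (3.65), *Wars2* (3.41) and *Yars2* (3.22 CPM per kilobase) were the lowest. *Iars2* and *Wars2* overlapped, whereas every *Wars2* value lay above every *Yars2* value. The order of *Wars2* and *Yars2* depends on the length used. *Wars2* has 5946 exonic bases and a principal transcript of 4410, and *Yars2* has 3149 and 1574. The plot of levels by library shows both sets on one scale.

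**Figure D1:**
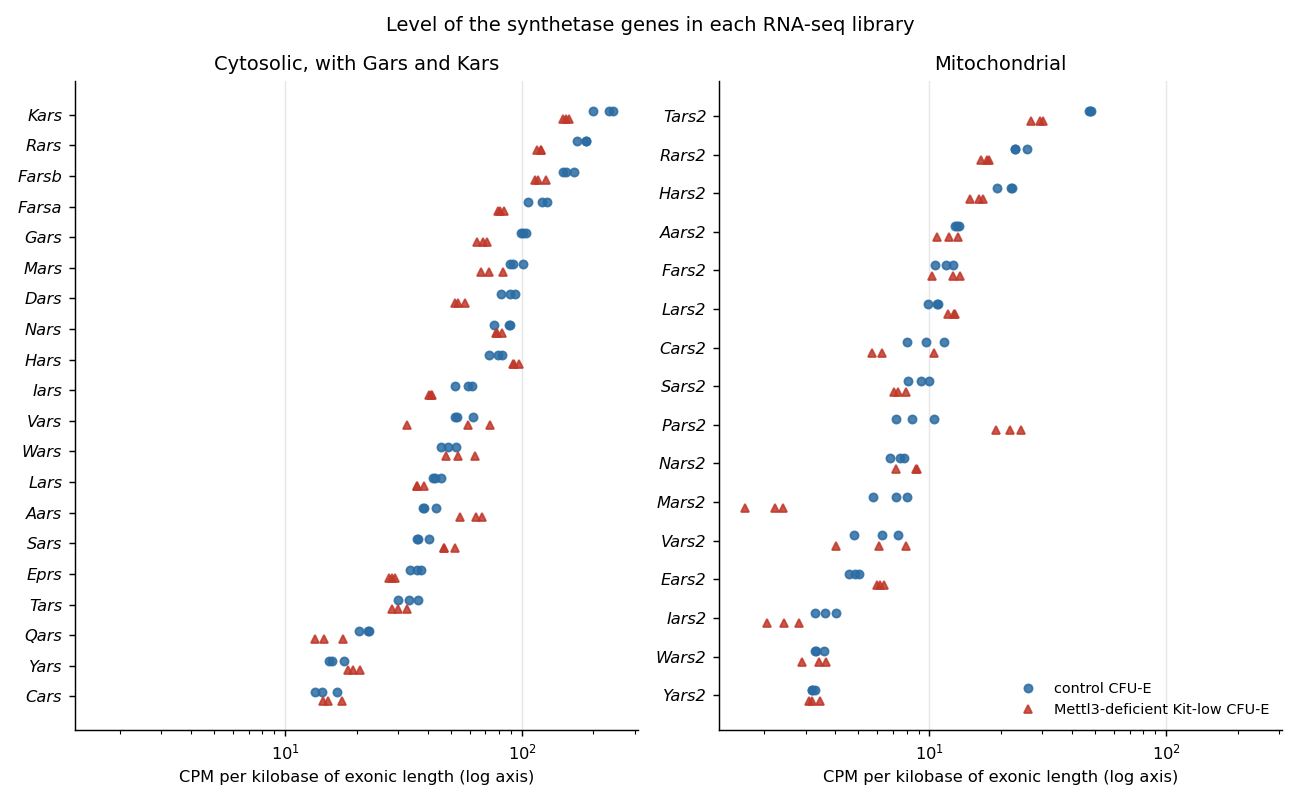
Level of 36 synthetase genes in CPM per kilobase of annotated exonic length, on a log axis, for the 3 control CFU-E libraries (circles) and the 3 *Mettl3*-deficient CFU-E Kit-lo libraries (triangles). Cytosolic genes are on the left and mitochondrial genes on the right, and the triangles of *Mars2* and *Pars2* stand well apart from their circles.

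The first comparison asked how the Kit-lo transcriptome differs from that of control CFU-E. Among the synthetases, *Pars2* and *Aars* rose, and *Mars2*, *Tars2*, *Dars* and *Rars* fell, by the rule of a fold change of at least 1.5 and an adjusted p under 0.05 in edgeR's quasi-likelihood test. The larger changes were mitochondrial. *Mars2* was 3.33-fold lower and *Pars2* 2.50-fold higher, whereas the cytosolic changes were 1.52- to 1.62-fold. The 2 members that rose are 5.41% of the 37, where 12.1% of all genes tested were called higher. The 4 that fell are 10.8%, where 9.83% of all genes were called lower. DESeq2 called each of these 6 members as well, and no other.

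*Mars2* encodes the mitochondrial methionyl enzyme, which charges the tRNA used both to start and to extend mitochondrial proteins. It is a single-exon gene on chromosome 1 (GRCm38 chr1:55237177-55248470, plus strand) whose annotated transcript is 11294 bases long, of which 9470 are 3′ UTR. Its level was 81.3, 65.1 and 90.4 CPM in the control libraries and 27.1, 18.7 and 25.2 CPM in the Kit-lo libraries. Every Kit-lo library lay far below every control library. The log2 fold change was -1.74 ± 0.17 (SE, adjusted p = 5.08e-05), the largest fall among the 37 genes.

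*Pars2* encodes the mitochondrial prolyl enzyme and lies on chr4:106651069-106655282, plus strand, in 2 exons. Control libraries held 26.1, 32.5 and 22.3 CPM and Kit-lo libraries 75.6, 59.1 and 67.6 CPM. The groups did not overlap, and the log2 fold change was 1.32 ± 0.16 (adjusted p = 0.000174). *Mars2* and *Pars2* were also the members that passed a test against a fold of 1.5 itself, rather than against no change.

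*Tars2* (chr3:95739976-95760206, minus strand) had 329, 327 and 332 CPM in control and 208, 186 and 204 CPM in Kit-lo. The control libraries differed by little, and the log2 fold change was -0.72 ± 0.08 (adjusted p = 7.11e-05). This was the most abundant mitochondrial synthetase in the RNA-seq libraries of control CFU-E. In the input libraries *Lars2* had more CPM than *Tars2*, 390 against 253. Per kilobase of exonic length *Rars2* was the highest mitochondrial member there at 45.6, with *Tars2* at 36.4 and *Lars2* at 35.2. The input values of these genes overlapped.

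The lowered cytosolic genes were both catalytic members of the multi-tRNA synthetase complex. *Dars*, the aspartyl enzyme (chr1:128363707-128417368, minus strand), had 388, 356 and 407 CPM in control and 249, 226 and 234 CPM in Kit-lo, a log2 fold change of -0.70 ± 0.08 (adjusted p = 0.000140). *Rars*, the arginyl enzyme (chr11:35808381-35834506, minus strand), had 601, 551 and 603 CPM in control and 374, 388 and 388 CPM in Kit-lo, a log2 fold change of -0.61 ± 0.07 (adjusted p = 0.000158). Neither gene overlapped between groups. *Rars* was close to the fold threshold, and with library size as the only scaling its log2 fold change was -0.56 and it was no longer called.

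*Aars*, the alanyl enzyme (chr8:111033144-111057664, plus strand), was the cytosolic member that rose. It had 402, 358 and 354 CPM in control and 506, 594 and 626 CPM in Kit-lo, with no overlap and a log2 fold change of 0.63 ± 0.10 (adjusted p = 0.000701). Without Kit-lo replicate 3 the log2 fold change was 0.58, just under the threshold of 0.585, and the call was lost. Of its exonic bases, 14.3% are shared with *Exosc6* on the same strand, and reads there could be assigned to either gene. The next largest rise was that of *Sars*, the seryl enzyme, with 207, 188 and 185 CPM in control and 240, 240 and 269 CPM in Kit-lo. Its groups did not overlap, but its log2 fold change of 0.37 ± 0.09 (adjusted p = 0.00776) was under the fold threshold.

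**Figure D2:**
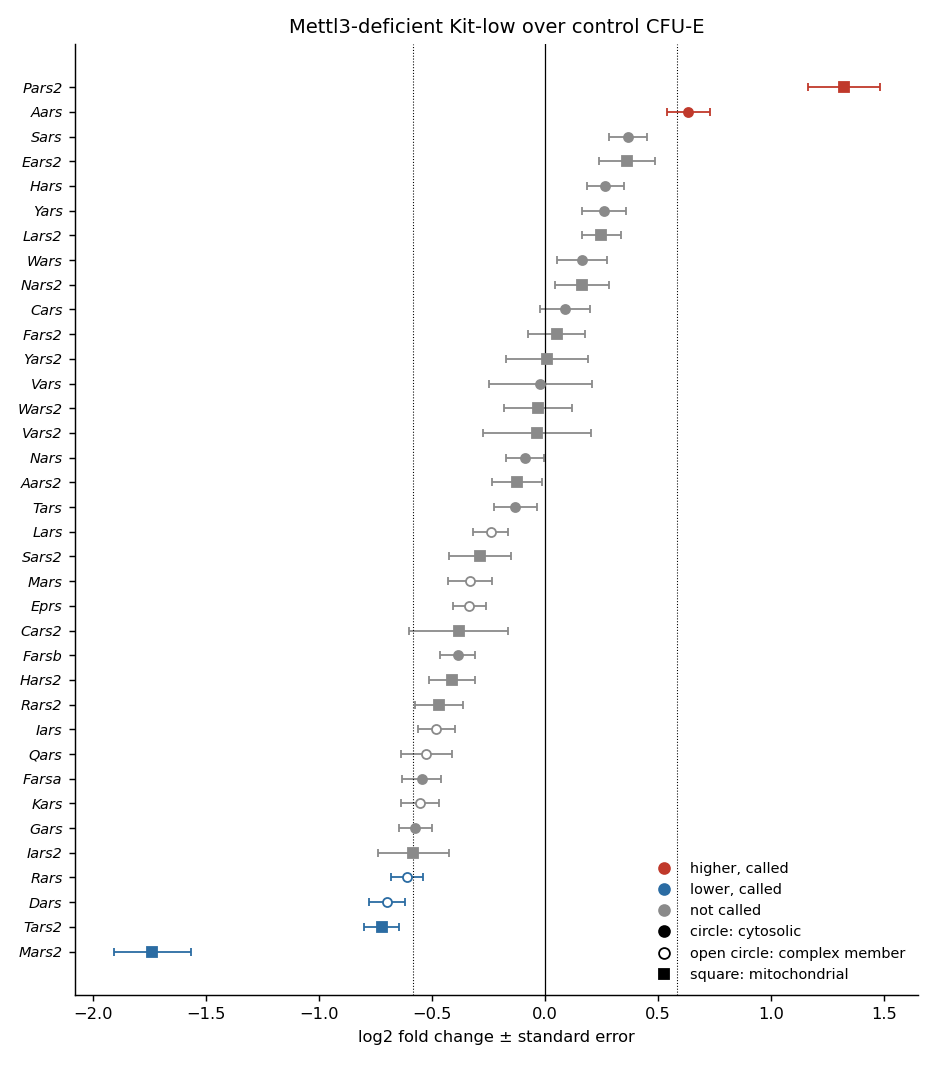
Log2 fold change of 36 synthetase genes, *Mettl3*-deficient Kit-lo over control CFU-E (3 libraries each), with its standard error from the edgeR fit, ordered by size. Dotted lines mark a fold of 1.5, squares are mitochondrial genes and open circles are members of the multi-tRNA synthetase complex, all 8 of which lie to the left of 0.

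The 8 catalytic members of the multi-tRNA synthetase complex (*Dars*, *Eprs*, *Iars*, *Kars*, *Lars*, *Mars*, *Qars* and *Rars*) were lower as a group. All 8 had an adjusted p under 0.05 at some fold, where 16.9% of all genes tested were lower by that criterion and 17.6% were higher. In all 8 every Kit-lo library lay below every control library, as was so for 24% of all genes in this direction and 23.5% in the other. Their median log2 fold change was -0.50, beside 0.01 over all genes tested. The changes were modest and ran from -0.70 for *Dars* to -0.24 for *Lars*. *Kars*, the most abundant, had 1039, 888 and 1076 CPM in control and 702, 681 and 663 CPM in Kit-lo (log2 -0.55 ± 0.09). *Eprs*, a fused enzyme for glutamate and proline, had 651, 607 and 677 CPM in control and 510, 498 and 526 CPM in Kit-lo (log2 -0.34 ± 0.07). The summed level of the 8 genes was 3616 ± 227 CPM in control and 2583 ± 58.2 CPM in Kit-lo (SD, n = 3 each).

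Cytosolic synthetases outside the complex went both ways. Of these 12, 3 were higher (*Aars*, *Sars* and *Hars*) and 3 lower (*Gars*, *Farsa* and *Farsb*) at an adjusted p under 0.05 and any fold. By that rule 17.6% of all genes tested were higher and 16.9% lower. The median log2 fold change of the 12 was 0.03. *Gars*, the glycyl enzyme of both compartments, had 313, 309 and 325 CPM in control and 202, 221 and 213 CPM in Kit-lo, a log2 fold change of -0.57 ± 0.07 (adjusted p = 0.000284). Both subunits of the phenylalanyl enzyme were lower, *Farsa* at -0.55 ± 0.08 and *Farsb* at -0.39 ± 0.08 on the log2 scale. The plot of cytosolic genes against their control means shows the difference in pattern between the groups of genes, which was not itself tested.

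**Figure D3:**
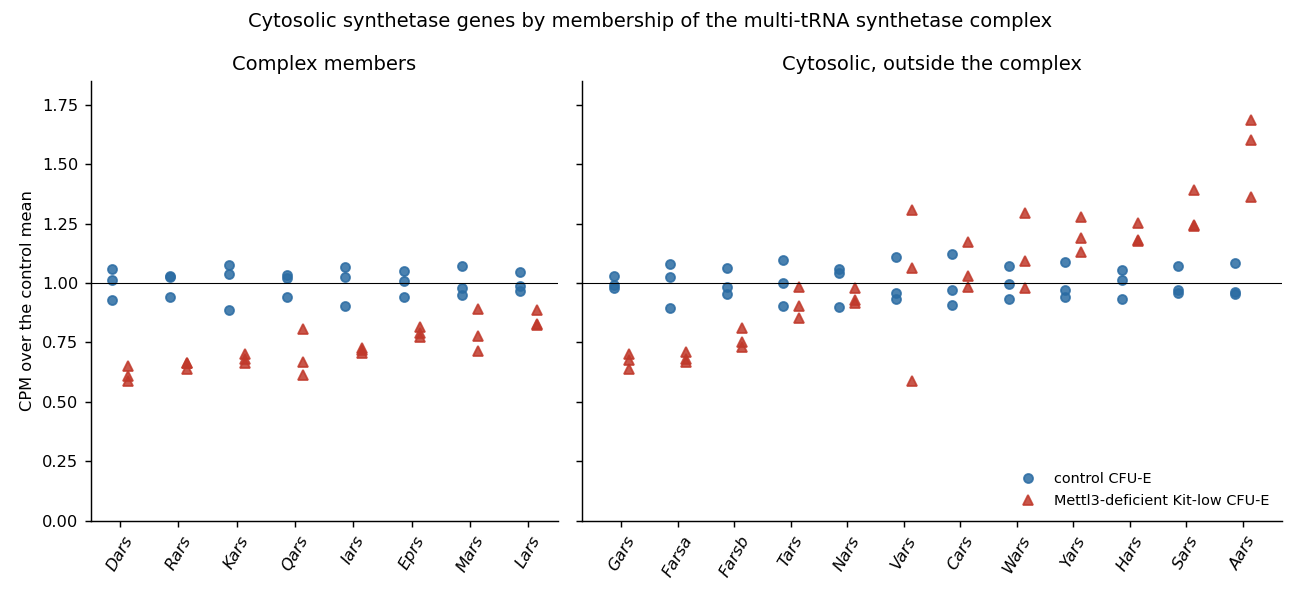
CPM of each cytosolic synthetase gene in each library divided by the mean of the 3 control libraries, with the 8 catalytic members of the multi-tRNA synthetase complex on the left and the other 12 genes on the right. Circles are control CFU-E and triangles *Mettl3*-deficient CFU-E Kit-lo. All triangles on the left lie below the circles of their gene, and those on the right range from *Gars* to *Aars*.

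Several members sat just inside or outside the fold threshold. *Rars* at -0.61 was the called member nearest to it, and *Iars2* at -0.58, *Gars* at -0.57 and *Kars* at -0.55 followed outside it. The count of members called lower therefore depended on small shifts. It was 7 instead of 4 under upper-quartile scaling, without control replicate 2 and without Kit-lo replicate 3. Without any fold threshold 16 members were lower and 6 higher, where 16.9% and 17.6% of all genes tested were. The groups did not overlap for 17 lower and 7 higher members, as was so for 24% and 23.5% of all genes. The other 13 members overlapped.

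Medians by structural class were close. Class I and class II are unrelated folds that mostly, but not always, attach the amino acid to different hydroxyl groups of the tRNA. The median log2 fold change was -0.14 over the 18 members of class I and -0.13 over the 18 of class II, *Eprs* belonging to both.

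For each amino acid with separate genes for the 2 compartments, the cytosolic and mitochondrial forms were set side by side in 18 pairs. The log2 fold changes had opposite signs in 12 pairs and the same sign in 6, many of them close to 0. The ratio of the mitochondrial to the cytosolic level, per kilobase, was higher in every Kit-lo library than in every control library in 6 pairs, lower in 6 and overlapping in 6. *Eprs* was paired with both *Ears2* and *Pars2*, and *Fars2* with both *Farsa* and *Farsb*. These pairs are not independent, and all of them had opposite signs and a higher ratio. Other pairs of genes were not counted, so there is no share to set beside these counts. For proline, *Pars2* over *Eprs* was 0.234, 0.313 and 0.193 in control and 0.868, 0.694 and 0.752 in Kit-lo. Methionine went the other way, with *Mars2* over *Mars* at 0.0717, 0.0649 and 0.0872 in control and 0.0287, 0.0248 and 0.0307 in Kit-lo. Alanine did so too, with *Aars2* over *Aars* at 0.297 to 0.3496 in control and 0.167 to 0.221 in Kit-lo.

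Most other mitochondrial members moved little. Of the 17, 3 were higher and 5 lower at an adjusted p under 0.05 and any fold, and the median log2 fold change was -0.03. Over all genes tested 17.6% were higher and 16.9% lower by that rule. *Rars2* (-0.47 ± 0.11), *Hars2* (-0.41 ± 0.10) and *Iars2* (-0.58 ± 0.16) were lower below the fold threshold, whereas *Ears2* (0.36 ± 0.12) and *Lars2* (0.25 ± 0.09) were higher. The summed level of the mitochondrial set was 1245 ± 8.85 CPM in control and 1075 ± 55.7 CPM in Kit-lo (SD, n = 3 each). A wide spread marked *Vars*, the valyl enzyme, whose Kit-lo libraries had 184, 332 and 409 CPM around control values of 299, 347 and 292 CPM. *Cars2* was similar, with 41.4, 45.6 and 75.5 CPM in Kit-lo and 70.2, 83.2 and 58.3 CPM in control. For both the groups overlapped and neither was called. Without Kit-lo replicate 3 the log2 fold change of *Cars2* moved from -0.38 to -0.69 and it was called lower (adjusted p = 0.00730).

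The other comparison asked which transcripts are enriched by the anti-m6A antibody in control CFU-E. A log2 IP over input above 0 means more of the transcript in the immunoprecipitate relative to the other genes, not a share of methylated molecules. *Dars*, *Tars* and *Iars2* were higher in IP, and *Yars2*, *Lars2*, *Farsa*, *Pars2* and *Cars* were lower, at an adjusted p under 0.05 in edgeR's quasi-likelihood test. The 3 higher members are 8.11% of the 37, where 7.9% of all genes tested were called higher. The 5 lower members are 13.5%, where 7.86% of all genes were called lower. Both IP libraries lay above both input libraries for 12 members and below them for 10, as they did for 32.2% and 28.7% of all genes tested. The median log2 IP over input was 0.22 over the synthetases and 0.06 over all genes tested. The balance over all genes moved with the scaling, from 904 higher and 900 lower with TMM to 934 and 608 with library size only and 1451 and 754 with upper-quartile scaling.

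The transcripts of the members higher in IP hold the letters GGACT, a common form of the sequence in which METTL3 methylates the central adenosine. The windows below are copied from the GENCODE M21 transcripts, 5′ to 3′ on the mRNA strand with GGACT in capitals, to show where such letters lie in *Tars* and *Iars2*. *Tars* has 2, one coding in exon 15 (GRCm38 chr15:11387509-11387513, minus strand) and one in the 3′ UTR (chr15:11382334-11382338), 33 bases before the end of the transcript. *Iars2* has 8, of which the one nearest to the transcript end, at 184 bases from it (chr1:185284910-185284914, minus strand, 3′ UTR), is shown.
Tars, coding: aaccatccagctGGACTttcagttgccca
Tars, 3′ UTR: tctagtagtctgGGACTtaataaagacaa
Iars2, 3′ UTR: ttgtcagcacttGGACTgctctaggcact
The letters are common. They occur in 91.9% of the 37 synthetase transcripts and in 91.4% of the transcripts of all genes tested, with a median of 3 in each set. *Dars*, the member with the highest IP over input, holds 1, which is coding. Of the members lower in IP, *Lars2* holds 10, *Cars* 7 and *Yars2* 2, whereas *Farsa* and *Pars2* hold 0. The gene table does not say where in a transcript the antibody bound.

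*Dars* showed the largest enrichment. It had 151 and 77.6 CPM in the input libraries and 376 and 232 CPM in the IP libraries, with a log2 IP over input of 1.41 ± 0.33 (adjusted p = 0.0187). Both IP libraries lay above both input libraries, although the values within each kind differed. *Tars*, the cytosolic threonyl enzyme (chr15:11382301-11399665, minus strand), had 52.5 and 37.9 CPM in input and 130 and 73.3 CPM in IP (log2 1.17 ± 0.30, adjusted p = 0.0265). *Iars2*, the mitochondrial isoleucyl enzyme (chr1:185284726-185329396, minus strand), had 10.8 and 8.77 CPM in input and 22.1 and 17.6 CPM in IP (log2 1.03 ± 0.27, adjusted p = 0.0304). Of the exonic bases of *Iars2*, 24.2% lie opposite *2010103J01Rik* or *Rab3gap2*, and the strand used in counting is not stated, so its reads are uncertain. The enrichment calls rested on few libraries. Leaving out 1 library gave a log2 IP over input of 1.002 to 1.94 for *Dars*, 0.68 to 1.52 for *Tars* and 0.83 to 1.18 for *Iars2*. Calls were then gained and lost, over the members and over all genes tested. The count of members higher in IP was 5 under upper-quartile scaling, where all genes went from 904 higher to 1451. With the replicate number as a block 10 members were higher and 8 lower, where all genes had 1783 and 1755.

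*Yars2* and *Lars2* lay furthest from 0 of all members, below input. *Yars2*, the mitochondrial tyrosyl enzyme (chr16:16302965-16309640, plus strand), had 100 and 93.7 CPM in input and 27.7 and 18.2 CPM in IP, a log2 IP over input of -2.08 ± 0.26 (adjusted p = 0.000517). *Lars2*, the mitochondrial leucyl enzyme (chr9:123366927-123462666, plus strand), had 303 and 477 CPM in input and 103 and 106 CPM in IP (log2 -1.90 ± 0.26, adjusted p = 0.000827). *Farsa* (chr8:84856989-84869257, plus strand) had 322 and 366 CPM in input and 145 and 168 CPM in IP (log2 -1.14 ± 0.22, adjusted p = 0.00636). These 3 kept their call without any 1 of the 4 libraries.

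*Pars2* had 27.8 and 18.3 CPM in input and 12.1 and 10.1 CPM in IP (log2 -1.05 ± 0.29, adjusted p = 0.0346). *Cars*, the cytosolic cysteinyl enzyme (chr7:143557230-143600090, minus strand), had 76.6 and 58.9 CPM in input and 36.3 and 32.6 CPM in IP (log2 -0.97 ± 0.24, adjusted p = 0.0216). Neither gene overlapped between IP and input. Both lost their call with library size only, without input replicate 1 and without IP replicate 2, which left 3 members called lower. *Farsb*, the partner of *Farsa* in the same enzyme, was not called, at 0.18 ± 0.24 on the log2 scale with overlapping libraries.

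DESeq2 called 3 members that edgeR did not, *Vars* and *Hars* among them. *Vars* had 37.7 and 35.4 CPM in input and 63.9 and 56.1 CPM in IP, at 0.72 ± 0.23 (adjusted p = 0.0555 by edgeR and 0.0418 by DESeq2). *Hars* had 408 and 366 CPM in input and 252 and 258 CPM in IP, at -0.60 ± 0.21 (adjusted p = 0.0773 and 0.0381 in the same order). For both the IP and input libraries did not overlap. The other 26 members were called by neither tool. Of the 8 complex members, 7 had a log2 IP over input above 0, with a median of 0.43 over the 8. Over all genes tested 6089 of 11447 were above 0, with a median of 0.06. Only *Dars* of the 8 was called, and for 3 of them the IP and input libraries overlapped.

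**Figure D4:**
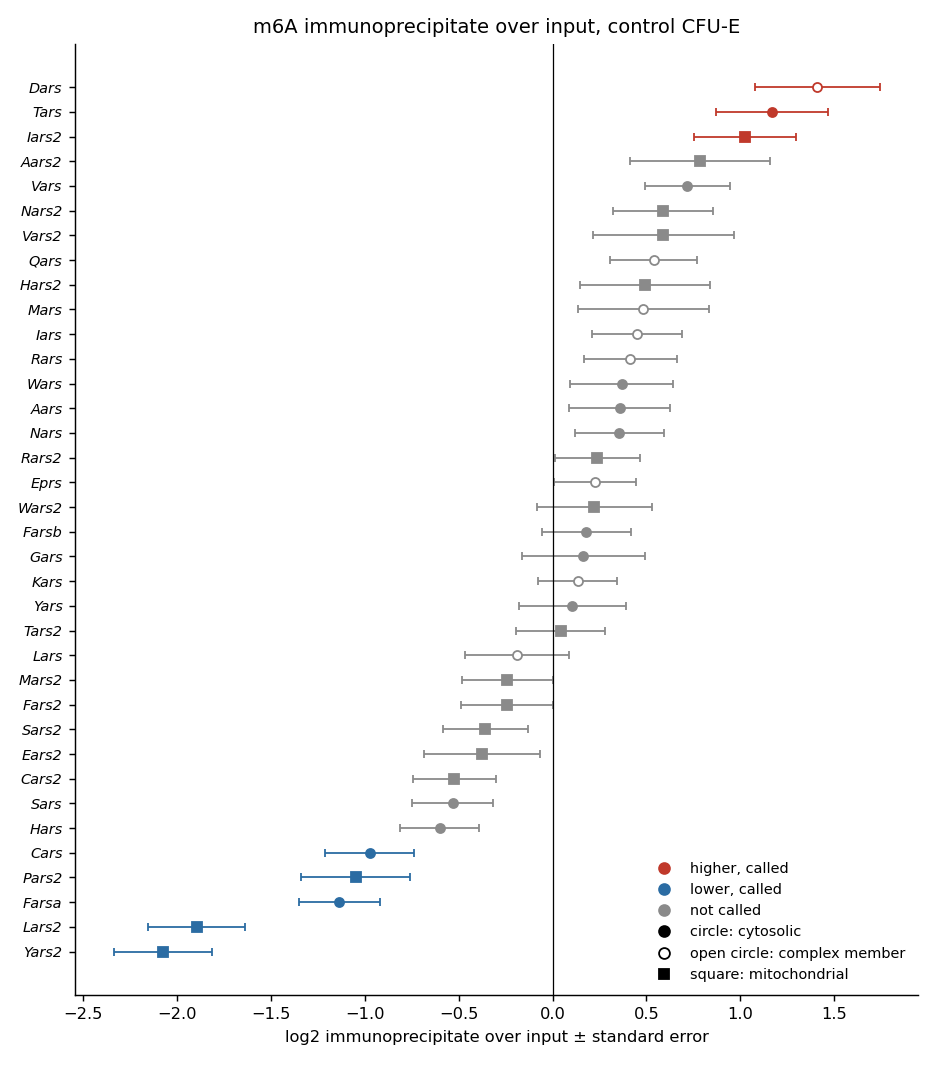
Log2 m6A immunoprecipitate over input of 36 synthetase genes in control CFU-E (2 libraries of each kind), with its standard error from the edgeR fit, ordered by size. Squares are mitochondrial genes and open circles complex members; *Dars* is at the top at 1.41 and *Yars2* at the bottom at -2.08.

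Set side by side, the comparisons had 2 called members in common. *Dars* was higher in IP in control CFU-E and lower in the Kit-lo cells. *Pars2* was lower in IP and higher in the Kit-lo cells. The other 2 members higher in IP, *Tars* and *Iars2*, and the other 4 lower in IP were not called in the Kit-lo comparison, and *Mars2*, *Tars2*, *Rars* and *Aars* were not called in IP. In 25 of the 37 genes neither comparison gave a call. Across genes, which share their libraries and are not independent replicates, Spearman's rho between the log2 fold changes was -0.27 over the 37 synthetases and -0.03 over the 10773 genes tested in both tables. No m6A library of *Mettl3*-deficient cells was analysed here.

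**Figure D5:**
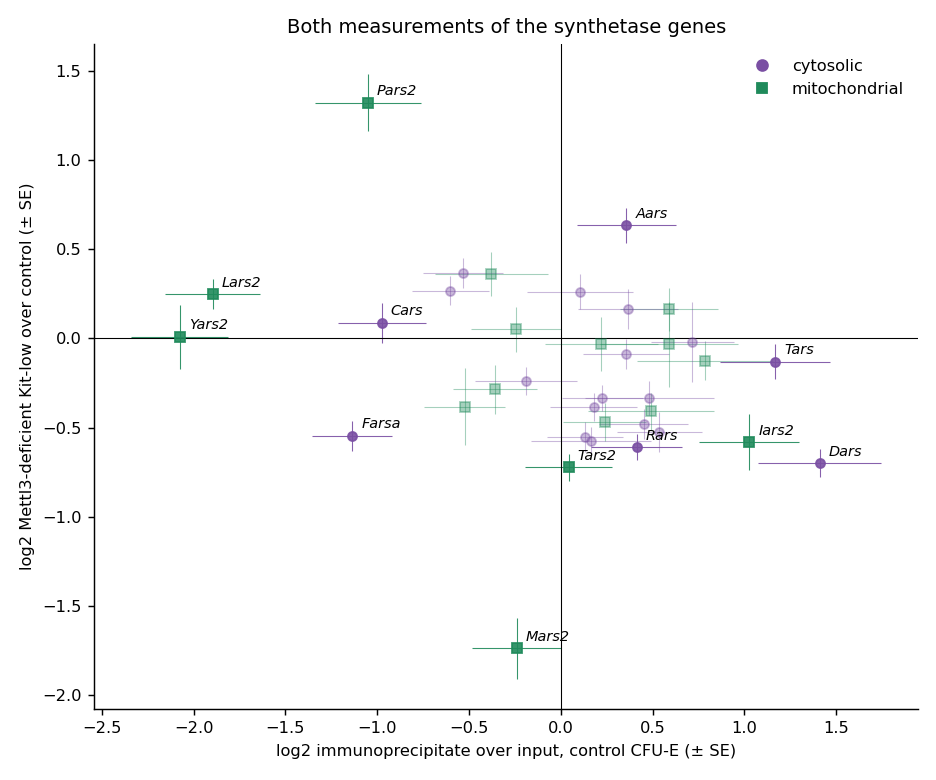
Each of 36 synthetase genes by its log2 immunoprecipitate over input in control CFU-E (horizontal) and its log2 fold change in *Mettl3*-deficient CFU-E Kit-lo over control CFU-E (vertical), with standard errors. Genes called in either comparison are named and drawn darker; *Dars* lies at the lower right and *Pars2* at the upper left.

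Genes that work with the synthetases were described from lists of their own. Of 10 non-catalytic complex factors and relatives, 0 rose and 2 fell in Kit-lo cells, with a median log2 fold change of -0.50. Over all genes tested 12.1% were called higher and 9.83% lower. By unadjusted p under 0.05 in edgeR 0 of the 10 were higher and 7 lower, where 22% and 21.5% of all genes were, and DESeq2 called 0 and 2. The 2 that fell were *Aimp1*, a scaffold of the multi-tRNA synthetase complex (57.1 to 37.3 CPM, log2 -0.62 ± 0.15, adjusted p = 0.00850), and *Pstk*, a kinase on the way to selenocysteinyl-tRNA (24.2 to 12.7 CPM, log2 -0.93 ± 0.16, adjusted p = 0.00144). Of 5 cytosolic elongation factor genes, 0 rose and 2 fell, with a median of -0.54. By unadjusted p 0 were higher and 3 lower, and DESeq2 called 0 and 2. Those that fell were *Eef1b2*, a nucleotide exchange subunit (log2 -0.75 ± 0.11), and *Eef1a1*, which carries charged tRNA to the ribosome (log2 -0.62 ± 0.11). Of 20 genes of tRNA maturation and export, 4 rose and 2 fell beside the same shares of all genes, with a median log2 fold change of -0.04, and 5 were higher and 5 lower by unadjusted p. The largest rises were those of *Pop7* (58.3 to 191 CPM, log2 1.71 ± 0.09), a subunit of RNase P and RNase MRP, and *Clp1* (90.7 to 282 CPM, log2 1.63 ± 0.08), an RNA kinase of the tRNA splicing endonuclease. The RNase P subunit *Rpp38* (log2 1.30 ± 0.16) and *Elac1*, a tRNA 3′ end nuclease (log2 0.65 ± 0.21), rose as well. Of 8 genes of mitochondrial charging and delivery, *Gatc* rose (log2 0.65 ± 0.12) and *Gatb* fell (log2 -0.74 ± 0.13), both subunits of the amidotransferase that makes mitochondrial glutaminyl-tRNA.

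In the m6A experiment these 4 lists held 1 called gene each, where 7.9% of all genes tested were called higher and 7.86% lower. *Trnt1*, which adds the CCA end to tRNAs, was higher in IP (log2 1.42 ± 0.28, adjusted p = 0.00813), as were *Gfm1*, a mitochondrial elongation factor (log2 1.41 ± 0.30, adjusted p = 0.0108), and *Eef2*, the cytosolic translocation factor (log2 0.70 ± 0.21, adjusted p = 0.0489). *Aarsd1*, an alanyl-tRNA editing protein, was lower (log2 -0.90 ± 0.23, adjusted p = 0.0233). Of 13 amino acid response genes tested, 0 were called by edgeR, with 2 higher and 3 lower at an unadjusted p under 0.05, where 17.2% and 14.8% of all genes were, and DESeq2 called 0 higher and 1 lower.

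Among amino acid response genes in the Kit-lo cells, of 13 tested, 5 rose and 1 fell, where 12.1% and 9.83% of all genes did, with a median log2 fold change of 0.35. By unadjusted p under 0.05 in edgeR 9 were higher and 2 lower, where 22% and 21.5% of all genes tested were. *Trib3* rose from 0.264 to 8.81 CPM, *Sesn2* from 45.3 to 85.4 CPM, *Slc7a1*, a transporter of cationic amino acids, from 45.4 to 84.3 CPM, and *Phgdh*, the first enzyme of serine synthesis, fell from 678 to 370 CPM.

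Promoters of 27 members had an entry in the RefSeq table of GRCm38.p6. The letters TGATGNAAT on either strand, the form of the composite element that ATF4 and C/EBP proteins bind, were found in the windows of 3 members, *Aars*, *Gars* and *Iars*, and in 0.965% of all 32851 windows of that length. The E-box CACGTG, bound by MYC among others, was found in 5 members, *Aars*, *Ears2*, *Farsb*, *Iars* and *Tars*, and in 7.15% of all windows. The 3 windows with the first element are shown from 250 bases before the annotated start, 280 bases each, 5′ to 3′ on the plus strand with the element in capitals, because their genes changed in different directions. In *Aars* (chr8:111033592-111033871) the element lies 113 to 105 bases upstream of the start, in *Gars* (chr6:55037751-55038030) 31 to 23 bases upstream, and in *Iars* (chr13:49681880-49682159) 6 to 14 bases downstream. All 3 read TGATGNAAT on the minus strand.
Aars promoter: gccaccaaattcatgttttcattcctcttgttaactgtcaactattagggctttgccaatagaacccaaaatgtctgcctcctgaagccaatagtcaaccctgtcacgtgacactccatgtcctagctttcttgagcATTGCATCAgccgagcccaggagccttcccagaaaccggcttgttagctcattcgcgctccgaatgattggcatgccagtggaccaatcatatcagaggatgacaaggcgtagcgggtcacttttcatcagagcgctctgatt
Gars promoter: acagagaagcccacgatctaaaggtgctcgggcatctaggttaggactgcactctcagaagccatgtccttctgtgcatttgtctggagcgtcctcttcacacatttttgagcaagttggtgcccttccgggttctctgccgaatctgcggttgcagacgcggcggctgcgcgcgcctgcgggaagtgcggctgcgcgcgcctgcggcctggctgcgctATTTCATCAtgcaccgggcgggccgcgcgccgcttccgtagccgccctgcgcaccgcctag
Iars promoter: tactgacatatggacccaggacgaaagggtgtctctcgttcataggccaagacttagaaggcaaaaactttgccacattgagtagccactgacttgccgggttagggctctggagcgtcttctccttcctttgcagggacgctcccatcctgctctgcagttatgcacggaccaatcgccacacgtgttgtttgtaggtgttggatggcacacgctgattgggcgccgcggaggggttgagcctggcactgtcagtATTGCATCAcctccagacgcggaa
*Aars* rose, *Gars* was lower under the fold threshold, and *Iars* had 324, 275 and 312 CPM in control and 214, 218 and 220 CPM in Kit-lo (log2 -0.48 ± 0.08, adjusted p = 0.00151). Members with the same letters in this window thus had changes of opposite sign. A match is a description of the letters and not a bound site.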

How the data were processed

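RNA-seq libraries (3 control and 3 *Mettl3*-deficient Kit-lo CFU-E) were made by Smart-seq2 with oligo-dT priming, and the m6A libraries (2 IP, 2 input) by SLIM-seq, which reads 3′ fragments. The authors filtered reads with fastp 0.23.4, quantified transcripts with kallisto 0.48.0 on mm10 (GRCm38), merged them to genes and deposited estimated counts, which were whole numbers. The labels also list GRCm39. Strand setting and use of the molecular identifier are not given in the sources used here. The 6 ProE samples were not analysed here.

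Each table was fitted over all genes by edgeR 4.0.16 under R 4.3.3, with TMM, filterByExpr, glmQLFit and glmQLFTest, and p-values were adjusted by Benjamini-Hochberg. The 2 tables were normalized separately. The standard error was the absolute log2 fold change over the square root of F. Calls needed an adjusted p under 0.05 and, for Kit-lo over control, a fold of at least 1.5. The biological coefficient of variation was 19.1% and 21.9%. DESeq2 1.42.0, other scalings, filters, a replicate block and leaving out each library were alternatives. The fits were tested on simulated data.

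Library values are given for called members, the 3 largest rises and falls of each comparison and members on which edgeR and DESeq2 differed; *Kars*, *Eprs*, *Gars*, *Iars*, *Vars* and *Cars2* were added after their values were seen. Companion genes are named where called, at most 4 per list. The members and lists were chosen with earlier results of these data known. Positions and lengths come from GENCODE M21 (GRCm38), where 99.9% of symbols of either table matched, and promoters from RefSeq (GRCm38.p6). Figures were drawn with matplotlib 3.10.9. The values of 1 member, which is included in all counts and medians, are not reported here, and the figures show the other 36.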

Additional observations from a re-analysis of the deposited data

How the results depend on the processing

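Of the 2 members called higher and 4 called lower in Kit-lo cells, DESeq2, its size factors in edgeR, the stricter filter, globin-free normalization and the TPM filter gave the same counts. Library size only gave 3 lower and no filter on low counts 6 lower. The count lower was 7 with upper-quartile scaling. Without a fold threshold the counts were 6 higher and 16 lower, where 17.6% and 16.9% of all genes tested were. Testing against a fold of 1.5 left 1 and 1. Leaving out 1 library gave 1 to 2 higher and 4 to 7 lower. Between IP and input (3 higher, 5 lower) DESeq2 gave 5 higher, upper-quartile scaling 5 higher and library size only 3 lower. Leaving out 1 library left a lone library of its kind, assumed to vary like the other group. Calls were then gained and lost, over the members and over all genes tested. The cause of these moves was not tested. Replicate numbers were shared between groups, but deviations of same-numbered libraries correlated at 0.034, -0.017 and -0.072 in RNA-seq and at 0.21 in the m6A table. With 2 pairs, and no source that ties an IP library to the input library of the same number, the m6A pairing could not be settled, and the fits without the block are those reported. With the replicate block 2 members were higher and 5 lower in Kit-lo, and 10 higher and 8 lower in IP, where all genes went from 904 higher and 900 lower to 1783 and 1755.

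Uncalled members near 0 changed sign. With library size only, log2 fold changes in Kit-lo were 0.025 for *Vars*, 0.027 for *Vars2* and 0.023 for *Wars2*. *Yars2* was at -0.028 with upper-quartile scaling and -0.0084 without a filter. Leaving out 1 library gave -0.018 to 0.18 for *Fars2*, -0.27 to 0.24 for *Vars*, -0.29 to 0.21 for *Vars2*, -0.11 to 0.073 for *Wars2* and -0.040 to 0.066 for *Yars2*. In IP over input it gave -0.029 to 0.39 for *Farsb*, -0.39 to 0.55 for *Gars*, -0.55 to 0.23 for *Lars*, -0.21 to 0.31 for *Tars2*, -0.028 to 0.66 for *Wars*, -0.025 to 0.40 for *Wars2* and -0.23 to 0.47 for *Yars*. The median over all genes of log2 IP over input moved by 0.16 with library size only and by 0.13 with upper-quartile scaling.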

Other observations

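The RNA-seq and input libraries both came from control CFU-E, but the synthetase genes stood at different levels in them. The tables were made by different library methods and normalized separately, so the levels are set side by side without a test. *Aars* had 371 ± 26.7 CPM in RNA-seq (SD, n = 3) and 23.1 ± 0.699 CPM in input (SD, n = 2). *Iars* (304 and 19.2 CPM) and *Aars2* (62.3 and 4.004 CPM) were also far lower in input. *Yars2* went the other way, with 10.1 ± 0.182 CPM in RNA-seq and 97.1 ± 4.79 CPM in input, as did *Lars2* (117 and 390 CPM), *Sars2* (30.2 and 76.2 CPM) and *Hars* (191 and 387 CPM). *Yars2* was the lowest of the 37 per kilobase of exonic length in the RNA-seq libraries, a rank that depends on the length used. Across genes, which are not independent replicates and share their libraries, Spearman's rho between the levels was 0.57 over the 37 synthetases and 0.70 over the 10773 genes tested in both tables. *Yars2* and *Lars2*, which were higher in input than in RNA-seq, were also the members with the lowest IP over input; input enters both quantities, and no cause was tested.

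Longer transcripts tended to have a higher log2 IP over input. Spearman's rho with the length of the principal transcript was 0.42 over the 37 synthetases and 0.33 over 11418 genes, as a description across genes that share their libraries. With the number of GGACT in the transcript it was 0.24 and 0.18.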
